A study of Homo sapiens with 3 samples.

Results

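The mitotic cyclins and kinases described here are 10 genes: CDK1, CCNA2, CCNB1, CCNB2, AURKA, AURKB, PLK1, BUB1, TTK and CDC20. They were chosen by symbol, and all 10 had a row among the 22499 gene rows shared by the 3 count tables. Single-cell RNA was collected from spheroids of CAMA-1, an estrogen receptor-positive breast cancer cell line, after 11 days in 1 µM ribociclib, an inhibitor of the G1 cyclin-dependent kinases, with DMSO named in the same treatment label. Sensitive cells were the Venus-labelled parental line, and resistant cells were an mCherry-labelled line derived from it by long culture in ribociclib. Spheroids were plated from 2000 cells as sensitive cells alone, as 50% of each line, or as resistant cells alone, and each composition was measured as 1 library with no untreated arm. The authors' annotation assigned the cells to 4 populations: 3329 cells of the sensitive monoculture, 2059 sensitive cells and 6292 resistant cells of the coculture, and 7557 cells of the resistant monoculture. With 1 library per composition no difference below has a replicate check and none was tested, and the 95% intervals cover the counting error of unique molecular identifiers (UMIs) or of cells only. Culture and library cannot be told apart in any comparison of coculture with monoculture, and the same holds for lineage and library between the monocultures. Cells were also selected by transgene UMIs in the coculture alone. There 3523 barcodes within the authors' quality limits had no transgene UMI and were not annotated.

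Entry into mitosis is driven by CDK1, which is inactive until it binds a cyclin. Cyclin A2 accumulates through S phase, and cyclins B1 and B2 accumulate in G2. The Aurora kinases and PLK1 build the spindle and the kinetochore attachments, the checkpoint kinases BUB1 and TTK hold cells until every chromosome is attached, and CDC20 then directs the anaphase-promoting complex to destroy cyclin B and securin. Transcripts of these genes rise from S to G2 and mitosis and are repressed in G1 and in arrested cells, largely through the CCAAT box and a short element near the start site called the cell cycle genes homology region (CHR). So a higher level in a whole population can stand for more cells in G2 and mitosis, for more transcript in each such cell, or for both. The phases G1, S and G2M used here are the authors' calls from the expression of S and G2M gene lists. The lists the authors used are not given in the sources used here. In the lists of Seurat 5.3.0, 7 of the 10 genes are G2M genes, while CCNA2, CCNB1 and PLK1 are in neither list, and phases called anew with those lists recovered 82.5 to 87.9% of the deposited G2M cells by population. Levels by phase are therefore described and not tested.

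Start-site windows of 300 bases, running from 250 bases upstream to 50 bases downstream (RefSeq, GRCh38.p14), were matched for 8 of the 10 genes. AURKA and TTK had no match. The windows of CCNB1, CCNB2 and AURKB are printed because these 3 genes, picked after their values were seen, kept a difference between cocultured and monocultured sensitive cells at a matched G2M score. Capitals mark the CCAAT box on either strand (ATTGG on the reverse strand) and the CHR, searched as TTTGAA or TTCGAA on either strand.
CCNB1, chr5:69166900-69167199, plus strand: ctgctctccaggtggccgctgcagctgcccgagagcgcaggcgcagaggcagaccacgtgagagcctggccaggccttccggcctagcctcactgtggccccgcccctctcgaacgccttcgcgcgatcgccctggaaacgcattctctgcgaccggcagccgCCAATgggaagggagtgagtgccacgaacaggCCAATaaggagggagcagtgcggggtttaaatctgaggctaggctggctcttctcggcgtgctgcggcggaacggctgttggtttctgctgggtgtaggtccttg
CCNB2, chr15:59104896-59105195, plus strand: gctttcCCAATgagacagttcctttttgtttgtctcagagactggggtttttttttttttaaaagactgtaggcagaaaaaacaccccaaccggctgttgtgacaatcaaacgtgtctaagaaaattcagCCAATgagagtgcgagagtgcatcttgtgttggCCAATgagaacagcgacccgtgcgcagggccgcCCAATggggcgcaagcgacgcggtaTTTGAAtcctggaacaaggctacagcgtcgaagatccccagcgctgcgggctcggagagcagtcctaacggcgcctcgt
AURKB, chr17:8210176-8210475, minus strand: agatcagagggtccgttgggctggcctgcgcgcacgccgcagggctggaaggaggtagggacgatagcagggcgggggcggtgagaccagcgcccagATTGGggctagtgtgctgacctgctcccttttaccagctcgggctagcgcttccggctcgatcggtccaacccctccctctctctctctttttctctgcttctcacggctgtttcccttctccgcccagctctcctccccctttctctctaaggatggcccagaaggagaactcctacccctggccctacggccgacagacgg
The CCNB2 window held 4 CCAAT boxes, which began 244, 120, 87 and 54 bases upstream of the start, and a CHR 29 bases upstream. The CCNB1 window held CCAAT boxes 87 and 55 bases upstream, and the AURKB window held 1, which began 153 bases upstream on the reverse strand. A CCAAT box was found in all 8 matched genes, against 34.6% of all 35116 windows. A CHR in the searched forms was found in 5 of the 8 genes (CDK1, CCNB2, PLK1, BUB1 and CDC20). By window this was 6 of their 10 windows, against 16.4% of all windows. Other forms of the CHR were not searched, so a gene without a match was not shown to lack one. Both elements stood in the windows of those 5 genes and in 6.38% of all windows. In PLK1 the CHR began 29 bases upstream, as in CCNB2, with a CCAAT box 73 bases upstream. A match is a description of these letters, and no match says nothing about which factors bind.

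Depth was high in all 4 populations, with a median of 27622 UMIs per cell in the sensitive monoculture, 34056 in cocultured sensitive cells, 30686.5 in cocultured resistant cells and 35443 in the resistant monoculture. The luminal markers GATA3, KRT8, KRT18 and EPCAM measured at least 205.0 UMIs per 1000000 UMIs (CPM) in every population, ESR1 lay between 14.2 and 20.2 CPM, the leukocyte marker PTPRC had at most 2 UMIs, and the stromal gene COL1A1 lay between 2.4 and 3.61 CPM. Cell barcodes shared between libraries were few: 8 annotated cells of the sensitive monoculture had a barcode also annotated in the coculture, and the corresponding counts were 7 between the monocultures and 17 between the coculture and the resistant monoculture. Among coculture barcodes within the authors' quality limits with 2 or more Venus UMIs, annotated or not, 186 mCherry UMIs corresponded to 7.57% resistant-cell RNA. These barcodes can include some that held cells of both lines, so the share may be too high for annotated cells, which was not tested. The levels in G1 cells are given with that RNA subtracted as well. The authors' phase calls put 5.71% of sensitive monoculture cells in G2M (190 cells, exact 95% interval 4.94 to 6.55%). The share was 22.5% in cocultured sensitive cells (463 cells, 20.7 to 24.4%), 24.5% in cocultured resistant cells (1540 cells, 23.4 to 25.6%) and 21.4% in the resistant monoculture (1614 cells, 20.4 to 22.3%).

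Cells with a transcript of the mitotic genes were less frequent in the sensitive monoculture than in the other populations. To compare cells of unlike depth, each cell was thinned to 10000 UMIs, which left out 3 cells of the sensitive monoculture and 2 of each resistant population. At least 1 of the 10 genes was found in 58.4% of sensitive monoculture cells (exact 95% interval 56.7 to 60.1%), in 86.7% of cocultured sensitive cells (85.1 to 88.1%), in 90.6% of cocultured resistant cells and in 91.0% of resistant monoculture cells. For CCNA2, the cyclin that spans S phase and G2, the shares in the same order were 3.64%, 16.5%, 16.8% and 15.1%. For CCNB1 they were 33.3%, 55.1%, 58.9% and 59.3%. For AURKB, the kinase of the chromosomal passenger complex, they were 3.91%, 17.6%, 18.7% and 20.9%. The share for each of the 10 genes was lowest in the sensitive monoculture, as the upper panel of the plot of shares shows. How many of all genes were lowest there in the same way was not counted. The 3 other populations lay close together: their intervals overlapped for CCNA2, PLK1, BUB1 and TTK, whereas CCNB2 was found in 36.2% of cocultured sensitive, 43.8% of cocultured resistant and 49.2% of resistant monoculture cells. In G1-called cells, which should hold little of these transcripts, CCNA2 was found in 0.608% of sensitive monoculture cells and in 3.51% of cocultured sensitive cells, at median depths of 26713 and 31963.5 UMIs before thinning. The G1 shares of AURKB were 0.98% and 5.36%, those of CCNB1 28.3% and 42.3%, and those of at least 1 of the 10 genes 53.7% and 77.2%. In the sensitive monoculture, where most cells were called G1, the shares over all cells of CCNB1 and of at least 1 gene were 33.3% and 58.4%, a few points above their G1 shares. In cocultured sensitive cells they lay further above the G1 shares, and the G1 shares themselves were higher in coculture. Shares of cells with free RNA of these genes and of cells that express them at a low level cannot be told apart here.

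**Figure D1:**
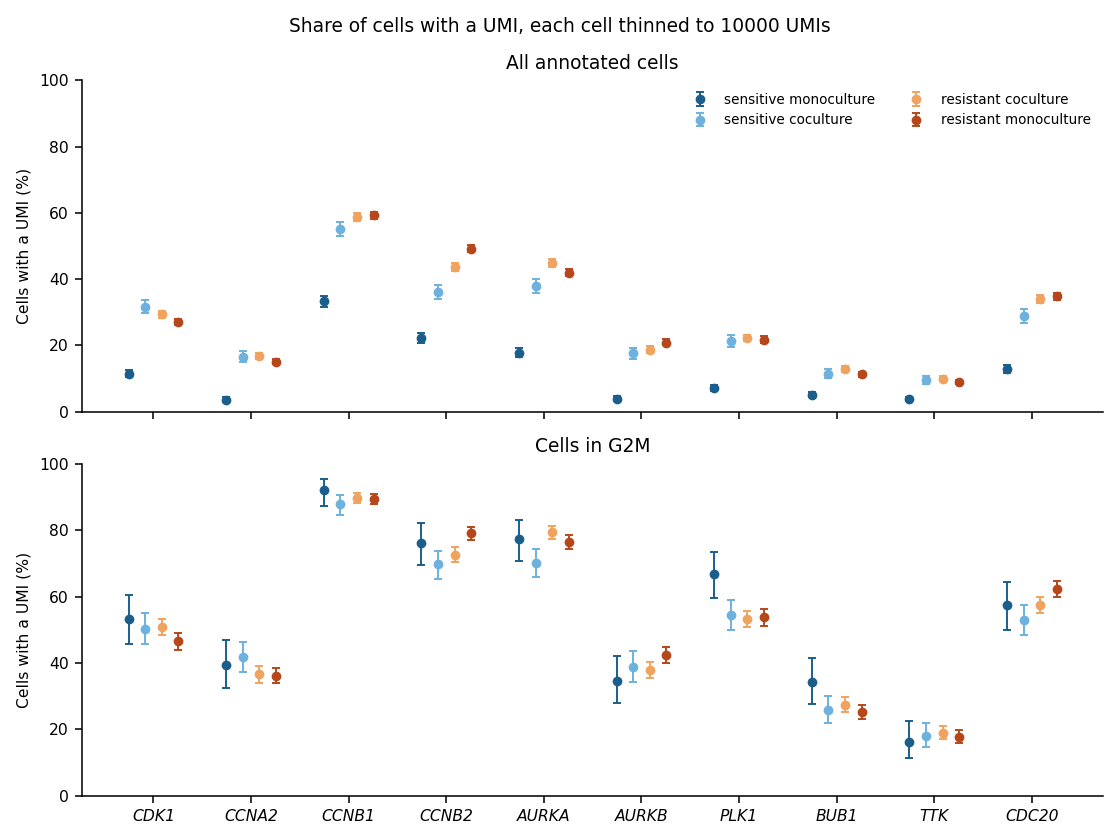
Share of cells with at least 1 UMI (percent, y axis) of each gene (x axis) in the 4 populations, each cell thinned to 10000 UMIs, for all annotated cells (upper panel) and for cells called G2M (lower panel). Bars are exact 95% binomial intervals over cells. Over all cells the sensitive monoculture lies lowest for all 10 genes, while among G2M cells it lies highest for CDK1, CCNB1, PLK1 and BUB1.

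Within G2M cells the order was different. The share of G2M cells with PLK1, the polo-like kinase that acts from mitotic entry to cytokinesis, was 66.8% in the sensitive monoculture (59.7 to 73.5%), against 54.4%, 53.3% and 53.8% in cocultured sensitive, cocultured resistant and resistant monoculture cells. The PLK1 interval of the sensitive monoculture did not overlap that of any other population, the nearest being cocultured sensitive cells (49.8 to 59.0%). These shares were not matched for the G2M score described below. At a matched score the PLK1 level in sensitive G2M cells was 104.3 CPM in monoculture and 102.8 CPM in coculture. CCNB1 was found in 92.1%, 87.9%, 89.9% and 89.6% of G2M cells, with overlapping intervals. CDK1 was found in 53.2%, 50.3%, 50.8% and 46.5%, and CCNA2 in 39.5%, 41.7%, 36.6% and 36.2%, again with overlapping intervals. Counted together, a thinned G2M cell held transcripts of 5.48, 5.10, 5.24 and 5.29 of the 10 genes on average. A thinned G1 cell held 0.852 in the sensitive monoculture, against 1.51, 1.67 and 1.77 in the other populations. The share of G2M cells differed far more between the populations than the number of these genes seen per G2M cell. The G2M call itself may hold that number alike in part, as 7 of the 10 genes are in Seurat's G2M list. The lists behind the deposited calls are not given, and this was not tested. No conclusion is drawn from the similarity of that number.

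In sensitive cells, all 10 genes were higher in coculture than in monoculture over all phases. Levels are given as CPM of the UMIs summed over the cells of a population. The cyclins differed in size: CCNA2 (chr4:122737599-122745038, GRCh37, minus strand) measured 6.2 CPM in the sensitive monoculture and 22.2 CPM in cocultured sensitive cells, a ratio of 3.57 (95% interval 3.25 to 3.93). CCNB1 (chr5:68462962-68474072) measured 72.7 and 138.8 CPM, a ratio of 1.91 (1.85 to 1.97). CCNB2 (chr15:59397325-59417244) measured 38.7 and 62.6 CPM, a ratio of 1.62 (1.55 to 1.69), the smallest of the 10. Resistant cells held these cyclins at 22.8, 152.2 and 72.5 CPM in coculture and at 19.8, 150.4 and 85.2 CPM in monoculture. Cocultured sensitive cells thus lay near the resistant cells for CCNA2 and below them for CCNB1 and CCNB2. Resistant over sensitive within the coculture was 1.1 (1.07 to 1.12) for CCNB1 and 1.16 (1.12 to 1.2) for CCNB2.

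The kinases were lowest in the sensitive monoculture too. CDK1 (chr10:62538089-62554610), the catalytic partner of these cyclins, measured 22.4 CPM in the sensitive monoculture, 55.6 in cocultured sensitive cells, 49.4 in cocultured resistant cells and 43.3 in the resistant monoculture. AURKA (chr20:54944445-54967393), which matures the spindle poles, measured 33.0, 74.9, 100.6 and 86.2 CPM. AURKB (chr17:8108051-8113918) measured 6.82, 26.9, 26.0 and 31.7 CPM, and its ratio in sensitive cells, 3.95 (3.61 to 4.32), was the largest of the 10. PLK1 (chr16:23688977-23701688) measured 13.7, 36.4, 34.9 and 33.8 CPM. In each case the sensitive monoculture stood apart from the other 3 populations. Its median mitochondrial share over all cells was also the highest, at 20.9%, against 17.3% in cocultured sensitive, 15.2% in cocultured resistant and 15.4% in resistant monoculture cells, and the part of this in the result was not tested.

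The spindle checkpoint kinases and CDC20 had ratios near that of AURKA, 2.27 (2.17 to 2.37). BUB1 (chr2:111395105-111435640), which loads checkpoint proteins on kinetochores, measured 6.39 CPM in the sensitive monoculture, 13.7 in cocultured sensitive cells, 15.1 in cocultured resistant cells and 13.2 in the resistant monoculture. TTK (chr6:80713604-80752244), the kinase that starts the checkpoint signal, measured 4.73, 10.1, 12.0 and 9.97 CPM. CDC20 (chr1:43824652-43828874) measured 18.6, 41.8, 50.2 and 52.3 CPM. The ratios of cocultured to monocultured sensitive cells were 2.15, 2.13 and 2.25.

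On the log2 scale with a pseudocount of 1 CPM, the median change of the 10 genes in cocultured over monocultured sensitive cells was 1.14, with a range of 0.68 to 1.84, against a median of -0.05 over the 12326 genes with at least 50 UMIs. At least 2-fold higher on this scale were 6 of the 10 genes, and 1.53% of all genes compared were higher by as much. BUB1 and TTK fell short through the pseudocount, at 0.996 and 0.951, with ratios of 2.15 and 2.13 without it. Between the monocultures the same number of genes, 10 of 10, was higher in resistant cells, 7 of them by at least 2-fold, against 2.16% of all genes. BUB1 and TTK fell short there in the same way, with ratios of 2.07 and 2.11 without the pseudocount. These 2 comparisons share the sensitive monoculture. In resistant cells, coculture and monoculture differed little: the median was 0.11, the range -0.28 to 0.24, and none of the 10 passed 2-fold in either direction, as was the case for all but 0.038% of genes. Within the coculture library, resistant over sensitive cells gave a median of 0.13 and no gene past 2-fold, against 1.75% of all genes.

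Most of the difference in sensitive cells went with the makeup of the population. The summed level of the 10 genes was 223.2 CPM (220.3 to 226.2) in the sensitive monoculture and 483.0 CPM (477.9 to 488.1) in coculture. The difference of 259.7 CPM was split into a part from the phase shares of UMIs, at the mean level of the 2 populations, and a part from the level within phases, at the mean shares. The makeup part was 240.5 CPM, which is 92.6% of the difference, and the level part was 19.2 CPM. With the levels of cocultured cells and the makeup of the monoculture the sum would be 276.1 CPM, and with the levels of the monoculture and the makeup of the coculture it would be 497.4 CPM. By gene the makeup part ranged from 65.6% of the difference for CDC20 to 133.7% for CCNB2, with a median of 87.1%. It passed 100% for CCNB2, whose level part was -8.05 CPM, and for CCNB1, whose level part was -3.35 CPM. For AURKB it was 68.3% and for TTK 69.5%, so these genes had the larger shares left to the level within phases. When phases were called anew from lists without the 10 genes, which gave the deposited phase in 98.7% of monocultured and 94.9% of cocultured sensitive cells, the median makeup part was 82.2% with a range of 62.0 to 126.6%. With those phases the level part of CCNB1 turned to 1.02 CPM (makeup part 98.5%), while that of CCNB2 was -6.36 CPM. Between the monocultures the resistant cells were higher by 302.6 CPM, of which 239.9 CPM (79.3%) was makeup.

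**Figure D2:**
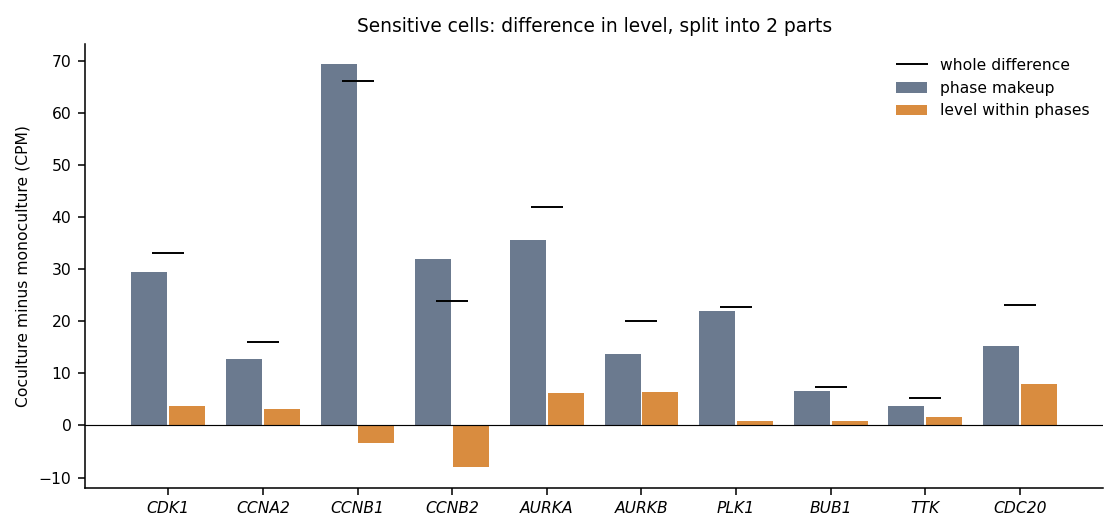
Difference in CPM between cocultured and monocultured sensitive cells (y axis) for each gene (x axis), as the whole difference (black line), the part from phase makeup (grey bars) and the part from the level within phases (orange bars). The grey bars make up most of each difference, and the orange bars fall below 0 for CCNB1 and CCNB2 with the deposited phases drawn here, but for CCNB2 alone when phases were called without the 10 genes.

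The level part itself was the sum of opposite signs by phase. For the 10 genes together, G1 cells contributed 56.1 CPM, S cells 1.77 CPM and G2M cells -38.6 CPM. In S cells the summed level was 395.2, 406.6, 413.6 and 421.8 CPM in monocultured and cocultured sensitive and in cocultured and monocultured resistant cells, and the median log2 change in sensitive cells was 0.01. In G2M cells it was 1449.2 CPM in the sensitive monoculture (1420.9 to 1477.9), 1200.5 in cocultured sensitive cells (1184.1 to 1217.1), 1244.2 in cocultured resistant cells (1234.6 to 1253.8) and 1322.9 in the resistant monoculture (1313.7 to 1332.2). The mean number of UMIs of the 10 genes per G2M cell, with no thinning, was 52.7, 43.9, 41.8 and 49.1. The few G2M cells of the sensitive monoculture held the highest summed level of the 4 populations as called, but the third highest at a matched G2M score (1241.1 CPM, against 1345.1 and 1266.3 CPM in monocultured and cocultured resistant cells). The median mitochondrial share of G2M cells was also highest there, at 18.3%, against 15.8% in cocultured sensitive cells and 14.3% in both resistant populations, and its part in the result was not tested.

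**Figure D3:**
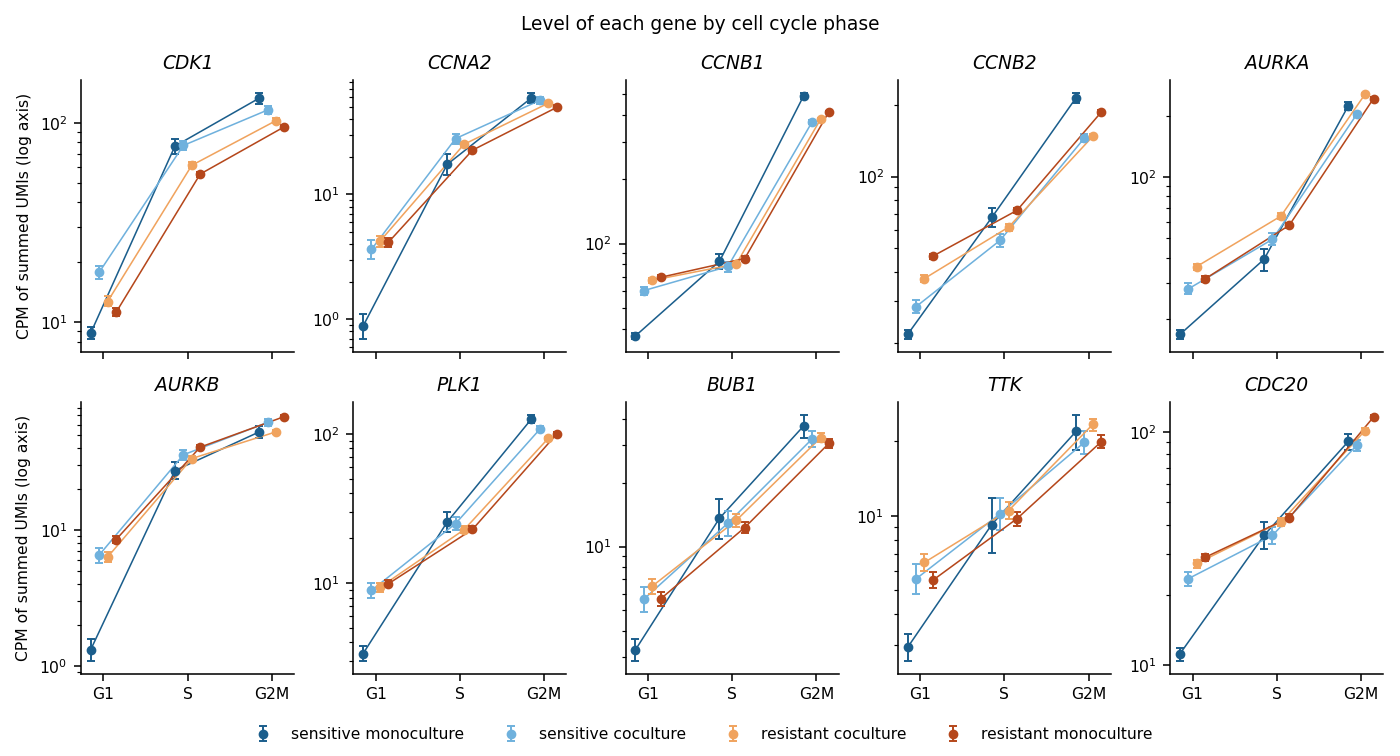
Level of each gene in CPM of summed UMIs (y axis, log scale, which differs by panel) by the authors' phase (x axis) in the 4 populations, with exact 95% Poisson intervals. The sensitive monoculture (dark blue) is lowest in G1 for all 10 genes, and in G2M it is the highest for CDK1, CCNA2, CCNB1, CCNB2, PLK1 and BUB1.

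By gene, the G2M cells of cocultured sensitive spheroids were below those of the monoculture for 9 of the 10 genes, with a median log2 change of -0.17, a range of -0.55 to 0.23 and no gene past 2-fold. Over all 10171 genes the median was -0.07 and 1.01% passed 2-fold in either direction. CCNB1 measured 491.2 CPM in the sensitive monoculture and 370.5 CPM in cocultured sensitive cells, a ratio of 0.754 (0.723 to 0.787), against 381.1 and 413.5 CPM in cocultured and monocultured resistant cells. CCNB2 measured 213.6 and 145.1 CPM in sensitive cells, a ratio of 0.68 (0.637 to 0.725). In resistant cells CCNB2 measured 186.2 CPM in monoculture and 147.5 CPM in coculture, a ratio of 0.792 (0.769 to 0.816). CCNB2 was thus lower in coculture in both lineages, and within the coculture library the lineages did not differ beyond counting error (ratio 1.02, 0.971 to 1.06). CCNA2 did not follow the B cyclins, at 59.2, 56.6, 53.7 and 49.7 CPM in monocultured and cocultured sensitive and in cocultured and monocultured resistant cells, with a ratio in sensitive cells of 0.955 (0.85 to 1.08).

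Among the kinases, CDK1 in G2M cells was ordered by lineage. It measured 133.1 and 116.1 CPM in monocultured and cocultured sensitive cells and 95.7 and 102.7 CPM in monocultured and cocultured resistant cells. Resistant over sensitive was 0.719 (0.67 to 0.772) between the monocultures and 0.884 (0.84 to 0.932) within the coculture library. PLK1 was ordered the same way, at 126.1 and 107.7 CPM in sensitive and 100.0 and 93.5 CPM in resistant cells. AURKA was ordered the opposite way, at 223.4 and 202.8 CPM in sensitive and 243.0 and 255.5 CPM in resistant cells, with a ratio within the coculture library of 1.26 (1.21 to 1.31). AURKB was the only gene of the 10 with more transcript in the G2M cells of cocultured than of monocultured sensitive spheroids, at 62.2 against 52.9 CPM (ratio 1.18, 1.04 to 1.33). In resistant cells AURKB measured 68.7 CPM in monoculture and 53.0 CPM in coculture (ratio 0.771, 0.735 to 0.81). BUB1, TTK and CDC20 in sensitive G2M cells had ratios of 0.869, 0.904 and 0.963, and each interval held 1. Across the other comparisons in G2M cells none of the 10 genes passed 2-fold, against 0.0509% of all genes in resistant cells of coculture over monoculture, 4.68% between the monocultures and 1.95% within the coculture.

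**Figure D4:**
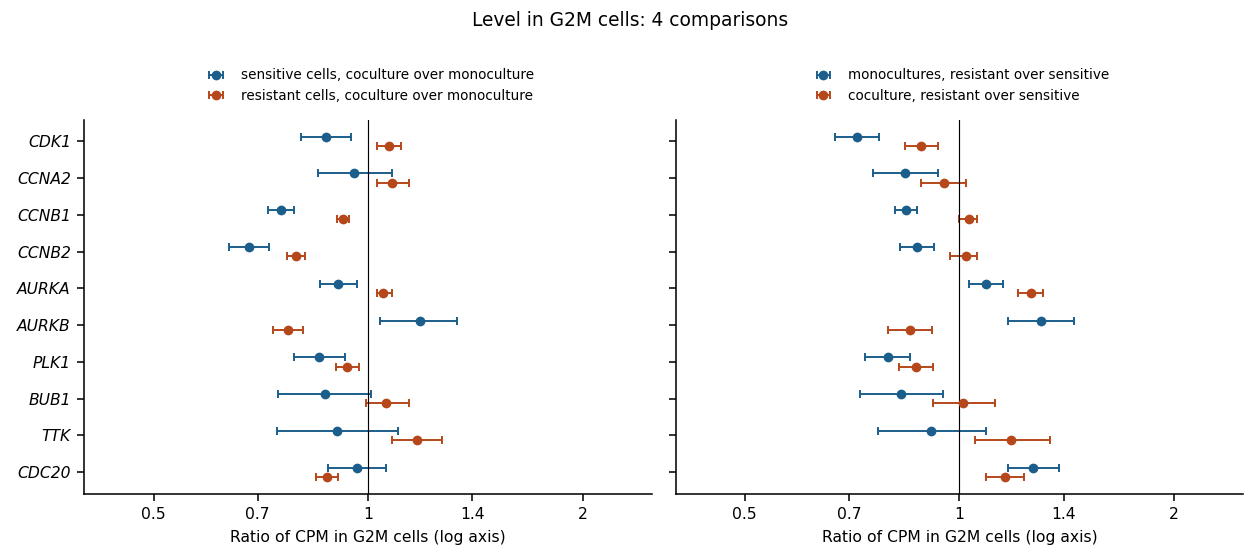
Ratio of CPM in G2M cells (x axis, log scale, 1 marked by a line) for each gene (y axis) with exact 95% conditional intervals. The left panel shows coculture over monoculture in sensitive (blue) and resistant (red) cells, and the right panel resistant over sensitive cells between monocultures (blue) and within the coculture (red). All points lie between 0.68 and 1.3, with CCNB2 left of the line for both lineages and AURKB on opposite sides.

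The G2M class is a range of a score, and the populations filled it differently. A G2M score was made from the list without the 10 genes, and the G2M cells of all populations were divided into 4 equal bins of that score. The top bin held 41.1% of the G2M cells of the sensitive monoculture and 29.6% of those of cocultured sensitive cells, and the lowest held 18.9% and 24.4%. The summed level of the 10 genes in sensitive monoculture cells was 428.3 CPM in the lowest bin and 1996.0 CPM in the top bin, so the filling of the bins bears directly on the mean. When the bins were given the same weights in all populations, the median log2 change in sensitive G2M cells moved from -0.17 to 0.03, and that between the monocultures from -0.22 to 0.03. The standardised sum was 1241.1 CPM in monocultured and 1145.5 CPM in cocultured sensitive cells, and the B cyclins were lower while the other 8 genes together were not. In resistant cells it was 1266.3 CPM in coculture and 1345.1 CPM in monoculture, both above the sensitive monoculture, so the order of the unmatched sums was not kept.

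The B cyclins and AURKB kept their directions at a matched score. CCNB1 was lower in cocultured than in monocultured sensitive cells in all 4 bins, with a standardised log2 change of -0.28. In the third bin it measured 396.2 CPM (377.2 to 415.8) in coculture and 543.1 CPM (508.5 to 579.3) in monoculture. CCNB2 was lower in all 4 bins as well, with a standardised change of -0.45, and measured 212.6 against 275.7 CPM in the top bin. AURKB was higher in coculture in all 4 bins, with a standardised change of 0.36, and measured 71.2 CPM (63.2 to 79.8) against 50.8 CPM (40.6 to 62.8) in the third bin. For the 7 other genes the standardised change lay between -0.05 (BUB1) and 0.15 (CCNA2). The order of CDK1 and PLK1 by lineage narrowed: standardised CDK1 was 106.9 and 109.4 CPM in monocultured and cocultured sensitive and 97.6 and 104.6 CPM in monocultured and cocultured resistant cells, and PLK1 was 104.3, 102.8, 102.0 and 95.4 CPM in that order. The opposite order of AURKA widened, at 180.5, 191.1, 248.3 and 261.5 CPM in that order. With resistant-cell RNA subtracted in each bin as well, the directions of CCNB1, CCNB2 and AURKB held in all 4 bins, with standardised changes of -0.22, -0.39 and 0.43. As counted, the intervals of the 2 populations overlapped in the second bin for CCNB1, in the lowest for CCNB2, and in the second and the top bin for AURKB.

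**Figure D5:**
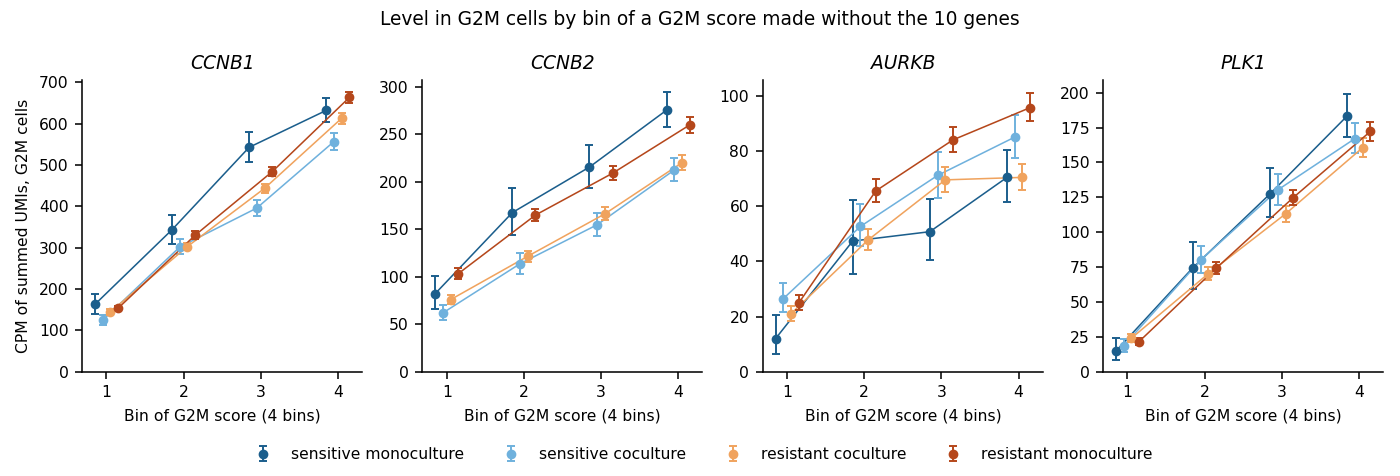
Level in G2M cells (CPM of summed UMIs, y axis) of CCNB1, CCNB2, AURKB and PLK1 by bin of a G2M score made without the 10 genes (x axis) in the 4 populations, with exact 95% Poisson intervals. All 4 genes climb with the score, CCNB2 is lower in both coculture populations than in both monocultures in each bin, and PLK1 of cocultured and monocultured sensitive cells has overlapping intervals in each bin.

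In G1-called cells the summed level was higher in coculture as counted. It was not higher with the score matched and resistant-cell RNA subtracted at the share above, which may be too high. The summed level of the 10 genes in these cells was 107.1 CPM (104.9 to 109.4) in the sensitive monoculture, 188.5 CPM (184.1 to 192.9) in cocultured sensitive cells, 213.8 CPM in cocultured resistant cells and 221.3 CPM in the resistant monoculture. The median log2 change in sensitive cells was 0.84 and all 10 genes were higher. CCNA2 measured 0.882 CPM in the G1 cells of the monoculture and 3.63 CPM in those of the coculture, a ratio of 4.12 (3.07 to 5.56), and AURKB measured 1.32 and 6.56 CPM, a ratio of 4.98 (3.96 to 6.3). With resistant-cell RNA subtracted at the share above, these ratios were 2.34 and 3.78, and that of the sum was 1.49 in place of 1.76. The G1 class was also filled differently: the lowest of 4 bins of the G2M score among G1 cells held 49.2% of the monoculture's G1 cells and 14.5% of those of cocultured sensitive cells, and the top bin held 8.34% and 34.1%. With the same weights of these bins in all populations the median log2 change was 0.30. The log2 change of AURKB was 1.71 before and 1.20 at matched weights, with standardised levels of 2.03 CPM in monoculture and 5.96 CPM in coculture. AURKB as counted was higher in coculture in each bin, with intervals that did not overlap, while CCNB2 was at -0.19. With matched weights and resistant-cell RNA subtracted at the same share in each bin, the median log2 change was -0.02 (range -0.41 to 0.81). The sum was then 145.3 CPM in monocultured and 141.7 CPM in cocultured sensitive cells, and 4 of the 10 genes were higher in coculture and 6 lower. AURKB was then 2.03 CPM in monoculture and 4.32 CPM in coculture, higher in 3 of the 4 bins, while in the lowest bin it was 0.692 and 0.578 CPM. In that bin the subtraction took cocultured CCNA2 from 1.25 and PLK1 from 2.5 CPM to 0.0 CPM, the lowest value it allowed. The sum there fell from 86.1 to 49.3 CPM, against 60.9 CPM in monoculture, where no RNA was subtracted. Whether the share was too high for G1 cells was not tested. The median mitochondrial share of G1 cells was 21.2% in monocultured and 19.2% in cocultured sensitive cells, and its part in the result was not tested.

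As counted, the contrast between phases was widest in the sensitive monoculture. The G2M level of CCNA2 was 67.1 times its G1 level there, against 15.6, 12.8 and 12.1 times in cocultured sensitive, cocultured resistant and resistant monoculture cells. For AURKB the ratios were 40.1, 9.47, 8.36 and 8.06, and for PLK1 37.5, 12.1, 9.99 and 10.1. With resistant-cell RNA subtracted, the ratios in cocultured sensitive cells were 28.8 for CCNA2, 13.1 for AURKB and 16.7 for PLK1, so the distance from the monoculture was smaller, most of all for CCNA2. These ratios were not matched for the score. With matched weights and subtraction, G1 and G2M levels of CCNA2 were 1.77 and 48.0 CPM in monoculture, and 1.52 and 55.9 CPM in cocultured sensitive cells. At that share the CCNA2 contrast was then not wider in monoculture, while that of AURKB was (2.03 and 46.6 against 4.32 and 63.1 CPM). For the sum the 2 contrasts were near (145.3 and 1241.1 against 141.7 and 1195.5 CPM). CCNA2 in G1 cells lay near the floor. Subtraction took its cocultured level from 1.25 to 0.0 CPM in the lowest bin and from 1.83 to 0.11 CPM in the second. The monoculture had 8 and 10 CCNA2 UMIs in these bins, so no conclusion is drawn for CCNA2. TTK and CDC20 had the flattest profiles, with ratios of 7.44 and 8.14 in the sensitive monoculture and between 3.55 and 3.99 elsewhere. The S level divided the genes by timing: CDK1 and AURKB reached 52.1 to 66.4% of their G2M level in S cells, while CCNB1 and PLK1 reached 16.8 to 24.4%. CCNA2 lay between them, at 29.4% in the sensitive monoculture and 45.5 to 49.5% elsewhere. In the sensitive monoculture 53.4% of all TTK UMIs and 51.6% of all CDC20 UMIs came from G1-called cells, against 12.2% of the CCNA2 UMIs.

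The authors' clusters placed these cells together. Cluster 7 held 77.9% of the G2M cells of the sensitive monoculture and 71.5% of those of cocultured sensitive cells, and the summed level of the 10 genes in its G2M cells was 1678.1 and 1416.7 CPM. A further 13.7% of the G2M cells of the sensitive monoculture (26 cells) and 18.4% of those of cocultured sensitive cells (85 cells) lay in cluster 3, where their summed level was 603.3 and 398.2 CPM. In resistant cells cluster 2 held 64.1% of G2M cells in coculture and 60.5% in monoculture, at 1561.7 and 1693.3 CPM. Cluster 8 of the sensitive monoculture, with 681 cells and no G2M call, had a summed level of 39.8 CPM over all its cells. Since the clusters were made from the expression of these cells, these values describe them and are no test.

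The wider mitotic network was taken from a list of 56 other genes in 5 groups by role. Over all phases 17 of the 56 were at least 2-fold higher in cocultured sensitive cells and none lower by as much, and the median log2 change was 0.47, against 1.53% of all genes higher by at least 2-fold and a median of -0.05 over all genes. The list was chosen with earlier results of these data known. In G2M cells 55 had enough UMIs, none passed 2-fold in either direction, 19 were higher and 36 lower, and the median was -0.10. Over all genes the median in these cells was -0.07 and 1.01% passed 2-fold, so the group lay near the background. Named below are the 2 genes of each group with the largest change in these cells, plus FOXM1 and MYBL2. Their levels were not matched for the G2M score, which the populations filled differently. Among regulators of CDK1 in G2M cells, the inhibitor CDKN1A measured 20.1 CPM in monoculture and 11.3 CPM in coculture (ratio 0.563, 0.45 to 0.705), and the phosphatase CDKN3 measured 179.1 and 117.3 CPM (0.655, 0.61 to 0.704). Among partners of the Aurora kinases and PLK1, the centromeric histone CENPA measured 57.3 and 35.3 CPM and the PLK1 activator BORA 8.4 and 5.02 CPM. Among spindle checkpoint genes, MAD2L1BP measured 22.6 and 15.5 CPM and ZWINT 201.0 and 153.2 CPM. Of the anaphase-promoting complex and its partners, the ubiquitin-conjugating enzymes UBE2C and UBE2S measured 517.4 and 1328.3 CPM in monoculture and 382.0 and 987.3 CPM in coculture. The mitotic transcription factors had the only positive median of the 5 groups in G2M cells, 0.10. FOXM1 measured 25.8 CPM in monoculture and 26.3 CPM in coculture, and MYBL2 measured 106.6 and 123.7 CPM (ratio 1.16, 1.07 to 1.26). LIN9 (6.23 and 7.97 CPM) and E2F7 (1.74 and 2.24 CPM) had intervals of the ratio that held 1. Over all phases FOXM1 measured 4.54 and 13.8 CPM and MYBL2 reached 73.4 CPM, and the ratios were 3.03 and 3.66.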

How the data were processed

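The authors sequenced 3 libraries of 3′ single-cell RNA from spheroids thawed after freezing and deposited UMI counts per gene and cell (Cell Ranger 3.0.2, GRCh37, per the labels), as 8643, 20227 and 11502 barcodes with 173405094, 519475237 and 359599734 UMIs. The deposited scores and calls of a cell table gave the population (in the coculture from transgene UMIs) and the phase of 19237 annotated cells, and 9 of its columns were not used. All monoculture barcodes within the authors' quality limits were annotated. The mitochondrial percent per cell is the value the authors deposited. The members and lists were chosen with earlier results of these data known. Rows without a symbol, 0.523 to 0.591% of UMIs, were left out. Counts were summed per population and phase, scaled to CPM, and compared as log2 ratios with a pseudocount of 1 CPM for genes with at least 50 UMIs, 2-fold being the limit for a change. Exact Poisson, conditional and binomial (Clopper-Pearson) intervals were computed at 95%. No test was run on cells. Shares were taken after thinning each cell to 10000 UMIs with a fixed seed. Phase scores were recomputed with Seurat 5.3.0 gene lists (41 S and 54 G2M genes, or 47 without the 10 genes) on log-normalised counts. Scrublet in scanpy 1.11.5 scored over 0.25 in 60 of 3329, 540 of 12346 and 254 of 7557 barcodes; the annotated cells among them were kept, and left out as an alternative. Other alternatives were TMM factors (edgeR 4.0.16), a pseudocount of 10 CPM, minimums of 10 and 200 UMIs, at least 2 transgene UMIs, and thinning to 5000 UMIs or none. The level standardised over bins of the score in G1 cells, and its combination with subtraction of resistant-cell RNA, were added after seeing the data. Gene positions are from GENCODE 44 lifted to GRCh37, and the computations ran in Python 3.11.15 and R 4.3.3. Scripts were tested on simulated data. The named genes were the 10 members, the 2 genes of each role group with the largest change in sensitive G2M cells, FOXM1 and MYBL2.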

Additional observations from a re-analysis of the deposited data

Results flagged for a closer look

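In several genes the change from monoculture to coculture had opposite signs in the 2 lineages. Each lineage had 1 library per culture, so the difference between lineages was not tested. Over all phases the log2 change of CCNB2 was 0.68 in sensitive and -0.23 in resistant cells, that of AURKB was 1.84 and -0.28, and that of CDC20 was 1.13 and -0.06. In G2M cells the log2 change of CDK1 was -0.20 in sensitive and 0.10 in resistant cells, that of AURKA was -0.14 and 0.07, and that of AURKB was 0.23 and -0.37. CCNA2, BUB1 and TTK had opposite signs in G2M cells too, but the intervals of their ratios in sensitive cells held 1. At a matched G2M score the signs of CDK1 and AURKA no longer differed. The standardised change was 0.03 for CDK1 and 0.08 for AURKA in sensitive cells, and 0.10 and 0.07 in resistant cells. AURKB was still opposite, at 0.36 and -0.37. The lineages share the coculture library and have separate monoculture libraries.

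In the coculture library, a set of barcodes that carried UMIs of both transgenes lies outside the annotation. There were 472 of them within the authors' limits, with a median of 37376 UMIs and a summed level of the 10 genes of 551.8 CPM (541.0 to 562.8), which was above that of the annotated cells of either lineage in that library. They were drawn to attention as a signal in barcodes that no comparison used.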

How the results depend on the processing

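Each setting below was changed alone, except where another is named with it, and the values are median log2 changes of the 10 genes unless said otherwise. In sensitive cells over all phases the median was 0.91 with a pseudocount of 10 CPM, where 2 and not 6 genes, and 0.325% of all genes, were at least 2-fold higher. In sensitive G2M cells it was 0.029 once standardised over 4 bins of the score, and in G1 cells 0.30, or -0.017 with resistant-cell RNA subtracted as well. In resistant cells over all phases it was 0.064 with TMM factors and 0.026 with at least 2 transgene UMIs per cell. Between the monocultures it was 0.92 over all phases with the larger pseudocount, where 3 and not 7 genes were at least 2-fold higher (0.478% of all genes), 1.27 with TMM factors, where 10 were (2.64%), and 0.03 in standardised G2M cells. With at least 2 transgene UMIs 10 genes passed as well (2.66%). Within the coculture over all phases it was 0.045 with at least 2 transgene UMIs. The share of cells with at least 1 gene, for monocultured and cocultured sensitive and then cocultured and monocultured resistant cells, was 40.4, 71.2, 76.3 and 77.0% at 5000 UMIs and 79.1, 97.1, 98.4 and 98.5% without thinning. The mean number of genes per G2M cell in that order was 3.81, 3.52, 3.59 and 3.65 at 5000 UMIs and 8.02, 7.84, 7.76 and 7.86 without thinning. With phases called without and with the 10 genes, the makeup part was 227.8 and 232.6 CPM in sensitive cells, 220.4 and 227.3 CPM between the monocultures and 22.1 and 20.4 CPM within the coculture, and it was 39.2 CPM in resistant cells without them. For single genes in sensitive cells, 56 values over all phases and 89 in G2M cells lay within counting error of the value reported, and 14 and 11 did not. Between the monocultures 37 and 73 lay within it, and 23 and 17 did not. In resistant cells 41 and 90 lay within it, and 19 over all phases did not. Within the coculture 54 and 92 lay within it, and 6 and 8 did not. The cause of these shifts was not tested, except that thinning itself sets how many genes can be seen. The G2M class of the sensitive monoculture holds 190 cells, which limits its bins most. No paired analysis was possible because each composition was 1 library, and no replicate could be left out.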

Other observations

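Barcodes with a mitochondrial share of 30% or more lie outside the annotation. Their summed level of the 10 genes was 102.0 CPM in the 4489 barcodes of the sensitive monoculture, 241.2 CPM in the 6172 of the coculture and 222.6 CPM in the 2187 of the resistant monoculture, and the median depth lay between 15588 and 17518 UMIs. In the coculture, 3523 barcodes within the limits had no transgene UMI, and their summed level was 385.0 CPM, below that of the annotated sensitive and resistant cells. At least 3 of the 10 genes were found in 76.8% of these barcodes and in 89.6% of those with both transgenes, with no thinning.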
